A study of Mus musculus with 2 samples.

Results

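The 5 Ly6 surface protein genes Ly6a, Ly6c1, Ly6c2, Ly6e and Ly6i, were followed through tumour-infiltrating cells of mice with the Ifnar1-SA genotype and of wild-type (WT) mice. They are 5 of the 32285 genes in the deposited tables, picked by name because earlier results of the same libraries had drawn attention to them. The members were therefore selected on their measured values, and their levels and differences are given as a description, with no test. Mice of both genotypes received MC38 cells, an established line from a mouse colon tumour, and immune cells were taken 14 days after inoculation, with no further treatment. The Ifnar1-SA group carries an altered form of Ifnar1, the gene for a subunit of the receptor of type I interferons, and the WT group carries the normal gene; the labels do not spell out SA and give no strain, age or sex. Each genotype has 1 library made by a standard 10x droplet protocol, so there is no spread between replicates, and every interval here covers counting error only. The number of animals pooled in a library is not stated in the labels.

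Ly6 proteins are small surface proteins of the Ly6/uPAR fold, held in the membrane by a glycosylphosphatidylinositol (GPI) anchor. Several are induced in lymphocytes and myeloid cells by interferons, and antibodies to them are everyday tools for sorting mouse blood and tumour cells. Ly6a encodes Sca-1, the stem cell antigen that also appears on activated T cells. Ly6c1 and Ly6c2 encode nearly identical Ly6C proteins, which antibodies do not readily tell apart and which mark inflammatory monocytes and subsets of CD8 T cells. Ly6e encodes an interferon-induced protein known to restrict the entry of some viruses, and Ly6i is a close relative of Ly6a and of the Ly6C genes.

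All 5 genes lie on chromosome 15 within 156920 bases of the mm10 build. Ly6e (74955051 to 74959905) is on the plus strand. Ly6i (74979534 to 74983430), Ly6a (74994877 to 74998031), Ly6c1 (75044018 to 75048830) and Ly6c2 (75108158 to 75111970) are on the minus strand. Droplet libraries of this kind count short reads, so the closeness of the Ly6C pair bears on every value of those genes. Ly6c1 and Ly6c2 are identical at 97.7% of their aligned coding bases, and of the 211 windows of 90 bases in the last 300 bases of the Ly6c1 transcript, 35 also occur in Ly6c2. No other pair of members shares a window of that length. The last 90 coding bases of both genes (GENCODE vM21 models on mm10, coding strand) are shown because they let the closeness of the genes be seen, with the 2 differing bases in capitals.
Ly6c1: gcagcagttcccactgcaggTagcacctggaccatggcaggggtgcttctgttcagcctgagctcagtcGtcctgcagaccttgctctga
Ly6c2: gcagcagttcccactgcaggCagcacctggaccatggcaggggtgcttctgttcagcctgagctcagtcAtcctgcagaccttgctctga
Reads over stretches without a differing base cannot be assigned to either gene, so the division of UMIs between Ly6c1 and Ly6c2 is reported as uncertain.

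The start sites of the Ly6C genes differ more than their coding parts do. The RefSeq promoter table for GRCm38.p6 holds 2 of the 5 members, Ly6c1 (chr15:75048788-75049087, minus strand) and Ly6c2 (chr15:75111922-75112221, minus strand). Each entry spans 250 bases before to 50 bases after the start, and they are shown because Ly6c1 and Ly6c2 were found in different lineages. Capitals mark the 74 columns that differ within the 282 columns in which the aligned windows overlap, an identity of 73.8%.
Ly6c1 promoter: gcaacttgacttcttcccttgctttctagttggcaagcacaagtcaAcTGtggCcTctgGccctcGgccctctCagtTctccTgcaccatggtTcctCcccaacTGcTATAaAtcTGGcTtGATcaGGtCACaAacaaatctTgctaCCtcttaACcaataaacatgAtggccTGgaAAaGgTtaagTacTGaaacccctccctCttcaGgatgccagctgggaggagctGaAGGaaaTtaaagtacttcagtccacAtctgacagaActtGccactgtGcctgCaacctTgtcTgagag
Ly6c2 promoter: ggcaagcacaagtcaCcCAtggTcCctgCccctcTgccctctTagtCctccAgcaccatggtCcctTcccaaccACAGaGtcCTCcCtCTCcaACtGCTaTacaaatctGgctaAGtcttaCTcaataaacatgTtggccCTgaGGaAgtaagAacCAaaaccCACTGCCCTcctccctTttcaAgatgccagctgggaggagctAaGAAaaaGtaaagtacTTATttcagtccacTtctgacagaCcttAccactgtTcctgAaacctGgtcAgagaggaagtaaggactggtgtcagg
The core of an interferon-stimulated response element, GAAA followed by any 2 bases and again GAAA, was searched on both strands and occurs in 3.44% of the 32851 promoters of the table. TTCNNNGAA, the letters of a gamma-activated site, occur in 8.30%. Neither run of letters is present in the 4 windows of the 2 Ly6C genes, a statement about these letters in these windows only.

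The Ifnar1-SA library held 62732220 UMIs (unique molecular identifiers, which count captured transcripts) and the WT library 55497066. After filtering, 5001 Ifnar1-SA barcodes and 4058 WT barcodes were kept, 7 of which carry the same barcode sequence in both libraries. The labels call the cells CD8 T cells, yet only 14.0% of kept barcodes in Ifnar1-SA and 24.9% in WT passed the CD8 T gate, and macrophages were the most numerous of the 4 lineages gated. The gates gave 701 and 1012 CD8 T barcodes, 504 and 344 regulatory T (Treg) barcodes, 1963 and 1404 macrophage barcodes and 190 and 174 tumour-like barcodes in Ifnar1-SA and WT. Barcodes that passed more than 1 gate (398 in Ifnar1-SA, 239 in WT) were set aside. Median depth was 5086 and 6004.5 UMIs in CD8 T, 5270.5 and 5598.5 in Treg, 10825 and 11717.5 in macrophages and 49324 and 49688.5 in tumour-like barcodes. Sex-linked transcripts differed between the libraries: 537 kept Ifnar1-SA barcodes had Y-linked UMIs and no Xist, against 1 such barcode in WT. Genotype and this difference cannot be told apart in the pooled values, so values within the Xist-bearing barcodes are given beside the results they touch.

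The gates were set on marker UMIs, so the levels of those markers follow from the gates and are no check on them. CD8 T barcodes had 707 and 655 CPM (UMIs of the gene per 1000000 UMIs of the lineage) of Cd8a in Ifnar1-SA and WT, and Treg barcodes had 361 and 291 CPM of Foxp3. Macrophage barcodes had 7052 and 8031 CPM of C1qa. Tumour-like barcodes had 628 and 536 CPM of Rhox5. Krt8, Krt18 and Epcam, epithelial markers that are not part of the gate, were at or near 0 in them. Their fibroblast markers summed to 2163 and 2677 CPM, mainly Col3a1 (1638 and 1870 CPM) and Dcn (504 and 690.0 CPM). Col1a1, the remaining marker of that list, was low and unequal, with 21.1 CPM in Ifnar1-SA and 116 CPM in WT. These barcodes are accordingly named after the gate and not as epithelial cells. Macrophage markers were present in the T cell gates at unequal levels: the 7 genes summed to 1166 CPM in Ifnar1-SA and 434 CPM in WT CD8 T barcodes, and to 1555 CPM in Ifnar1-SA and 550 CPM in WT Treg barcodes.

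Each member had its own pattern over the lineages, and the pattern was the same in outline in both libraries. Ly6a and Ly6e were detected in every lineage with lower levels in CD8 T and tumour-like barcodes. Of these lineages and the further gates of at least 20 barcodes, Ly6c2 was highest in monocytic barcodes, Ly6i was counted mainly in myeloid barcodes, and Ly6c1 was found chiefly in the tumour-like gate. Beside the 4 lineages, 3 further marker gates held at least 20 barcodes in each library: conventional CD4 T (243 in Ifnar1-SA, 204 in WT), C1q-low monocytic (338 and 207) and migratory dendritic cells (30 and 28).

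**Figure D1:**
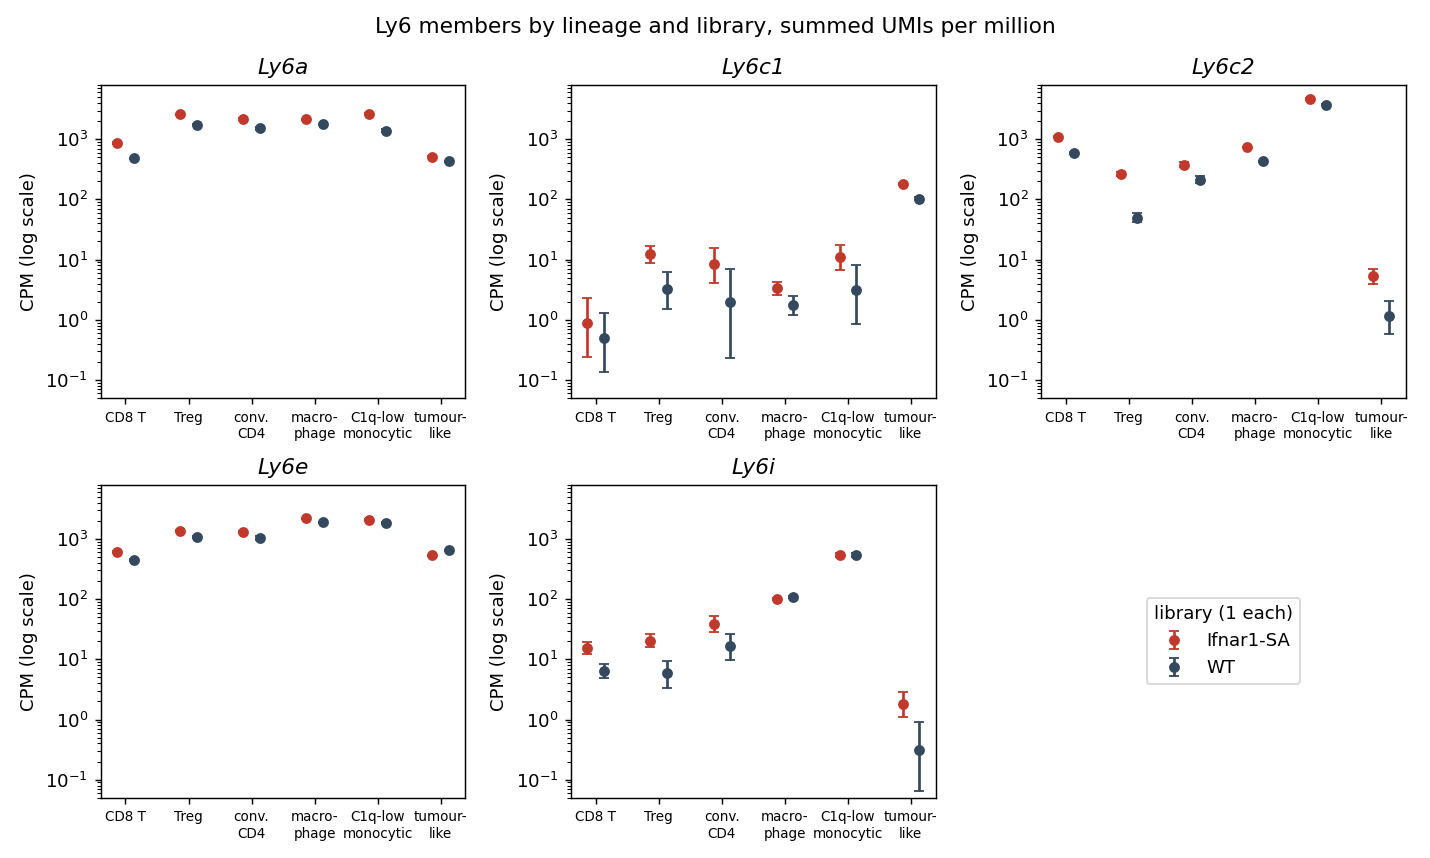
Level of each Ly6 member in CPM (log scale) by lineage, with Ifnar1-SA to the left of WT and bars for the 95% Poisson interval of the summed UMIs in 1 library each. Of the gates drawn, Ly6c2 is highest in C1q-low monocytic barcodes (4681 CPM in Ifnar1-SA, 3758 CPM in WT), and Ly6c1 in tumour-like barcodes (181 CPM in Ifnar1-SA, 103 CPM in WT).

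Between the genotypes most members were higher in Ifnar1-SA than in WT. A gene was counted as past the threshold when it differed by at least 1.5-fold, among genes with a mean of at least 20 CPM and at least 30 UMIs in the lineage. In CD8 T barcodes 2 of 3 members that passed this filter were past 1.5-fold higher, against 3.24% of 4970 genes, and none was past it lower, against 2.58%. In Treg it was 1 of 3, against 4.4% of 5249 genes higher and 2.8% lower. In macrophages it was 1 of 4, against 1.31% of 4826 genes higher and 0.829% lower, and in tumour-like barcodes 1 of 3, against 0.222% of 5411 genes higher and 1.05% lower. No member was past the threshold lower in any of the 4 lineages. Since the members were chosen with these differences known, the shares are printed for scale and nothing is read from them.

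**Figure D2:**
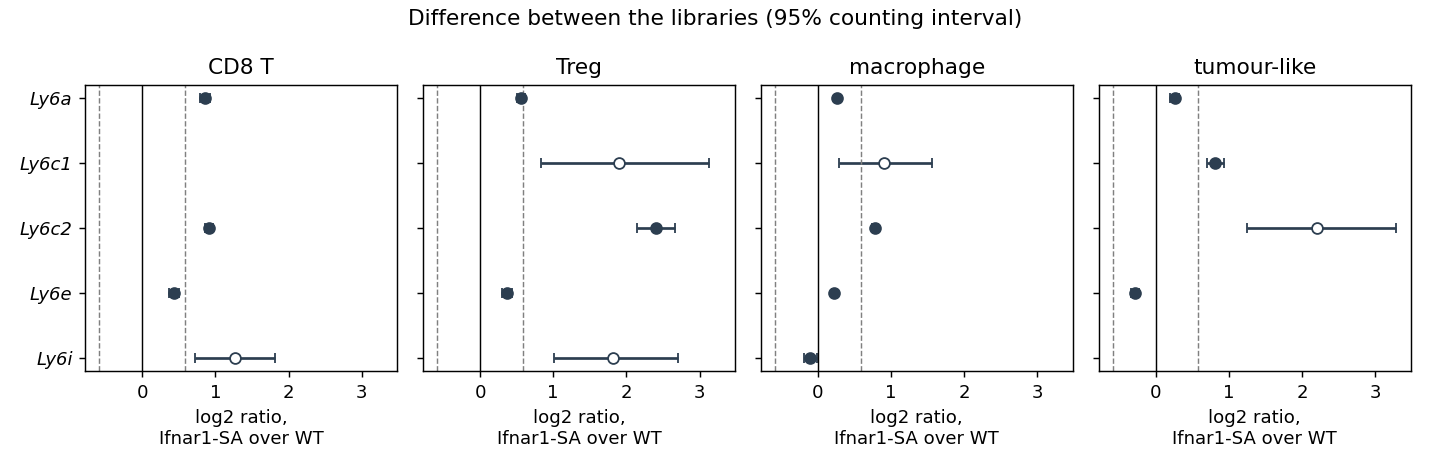
Log2 ratio of Ifnar1-SA over WT for each member in 4 lineages, with the exact 95% counting interval; dashed lines mark 1.5-fold, filled points passed the filter on low values and open points did not, and members with under 30 UMIs are not drawn. Ly6c2 lies to the right of the upper line in CD8 T (0.91), Treg (2.40) and macrophages (0.79), and Ly6c1 in tumour-like barcodes (0.82).

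Ly6a, the Sca-1 gene, was higher in Ifnar1-SA than in WT in all 4 lineages. CD8 T barcodes had 875 CPM in Ifnar1-SA (95% Poisson interval 848 to 902) and 482 CPM in WT (467 to 498), a log2 ratio of 0.86 (0.80 to 0.92). After each barcode was thinned to 2000 UMIs, 68.0% of Ifnar1-SA and 50.8% of WT CD8 T barcodes had a Ly6a UMI; unthinned, the shares were 89.2% and 79.8%. The whole distribution lay higher: 28.7% of Ifnar1-SA and 11.8% of WT barcodes had at least 3 UMIs after thinning. Treg barcodes had 2585 CPM in Ifnar1-SA and 1750.3 CPM in WT, a log2 ratio of 0.56 that stands just below the threshold at 1.48-fold, the member nearest to it from below. Ly6a was found in nearly all Treg barcodes, 95.1% in Ifnar1-SA and 89.8% in WT after thinning. In macrophages it had 2148 CPM in Ifnar1-SA and 1783 CPM in WT (log2 ratio 0.27), and in tumour-like barcodes 514 and 429 CPM (0.26). No lineage lacked Ly6a, and the lowest share was in migratory dendritic barcodes, with 5 of 28 thinned barcodes in Ifnar1-SA and 2 of 24 in WT.

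Among the further gates of at least 20 barcodes, Ly6a was past 1.5-fold higher in Ifnar1-SA in C1q-low monocytic and migratory dendritic barcodes. The share of all genes past 1.5-fold was not computed for these gates, so nothing is read from these calls. C1q-low monocytic barcodes had 2639 CPM in Ifnar1-SA (2562 to 2717) and 1392 CPM in WT (1328 to 1459), a log2 ratio of 0.92. The order across lineages differed as a result: among gates of at least 20 barcodes, these and Treg were the highest in Ifnar1-SA, with intervals that overlapped. In WT macrophages and Treg were the highest, also with overlapping intervals, and monocytic barcodes stood with conventional CD4 T below them. Conventional CD4 T barcodes had 2174 CPM in Ifnar1-SA and 1522 CPM in WT, a log2 ratio of 0.51. Migratory dendritic barcodes had few UMIs, 45 in Ifnar1-SA (167 CPM) and 6 in WT (32.5 CPM). Their log2 ratio was 2.36 (1.13 to 3.89). Unthinned, similar shares of them had a Ly6a UMI, 6 of 30 in Ifnar1-SA and 5 of 28 in WT. In Ifnar1-SA 5 barcodes held 95.6% of the UMIs, an unevenness that the interval does not cover. Within Xist-bearing barcodes without Y-linked UMIs, Ly6a had 2547 CPM in Ifnar1-SA and 1355 CPM in WT monocytic barcodes, and 796 and 475 CPM in CD8 T barcodes. Free RNA, taken from droplets of 10 to 100 UMIs, held 1211 CPM of Ly6a in Ifnar1-SA and 819 CPM in WT. It was estimated to make up 2.30% and 1.54% of the UMIs in CD8 T barcodes, equal to 27.8 and 12.6 CPM of Ly6a. The estimate used C1q UMIs alone. In CD8 T barcodes C1qa had 51.5 CPM in Ifnar1-SA and 41.7 CPM in WT, while the myeloid gene Lyz2 had 430 and 122 CPM. Myeloid transcripts from cells low in C1q are therefore not covered by it.

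Ly6c2, one of the Ly6C genes, was the member past the threshold in 3 of the 4 lineages. It was also past 1.5-fold in conventional CD4 T barcodes, with 379 CPM in Ifnar1-SA and 213 CPM in WT (log2 ratio 0.83). There 5 barcodes held 61.7% and 79.9% of its UMIs, and the share of all genes past 1.5-fold was not computed. CD8 T barcodes had 1106 CPM in Ifnar1-SA (1076 to 1137) and 587 CPM in WT (570 to 604), a log2 ratio of 0.91 (0.86 to 0.97). After thinning, 59.2% of Ifnar1-SA and 44.3% of WT CD8 T barcodes had a UMI, and 20.2% and 10.2% had at least 5; unthinned, 70.8% and 57.8% had a UMI. Tumour-like barcodes serve as a lineage with little of the gene: 1 of 190 thinned barcodes in Ifnar1-SA and 0 of 174 in WT (exact Clopper-Pearson upper bound 2.10%) had a Ly6c2 UMI, at median depths of 49324 and 49688.5 UMIs before thinning. Unthinned, at that depth, 13.7% of Ifnar1-SA and 6.32% of WT tumour-like barcodes had one. The tenth of CD8 T barcodes with the most Ly6c2 UMIs held 49.0% of them in Ifnar1-SA and 54.1% in WT, so the gene was unevenly spread within the lineage.

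CD8 T barcodes were divided by markers other than the members. In barcodes rich in Gzmb, the granzyme B gene of cytotoxic cells, Ly6c2 had its highest level, 2325 CPM in Ifnar1-SA and 1086 CPM in WT (log2 ratio 1.10). Remaining barcodes had 1450.3 and 826 CPM (0.81). Cycling barcodes had a log2 ratio of 0.91 and barcodes with Xcl1, a chemokine gene of less differentiated CD8 T cells, one of 0.51. Ly6a was higher in Ifnar1-SA in all 4 strata, by 0.70 in cycling, 0.64 in Xcl1, 1.06 in Gzmb-high and 1.05 in remaining barcodes on the log2 scale. The strata held unequal shares of the lineage: cycling barcodes were 17.7% of CD8 T barcodes in Ifnar1-SA and 28.3% in WT, and Xcl1 barcodes were 25.0% and 12.1%. With myeloid-UMI barcodes removed (3 or more UMIs of Lyz2, Csf1r, Fcgr1 and Cd68; 48 in Ifnar1-SA and 40 in WT), CD8 T barcodes still had 967 and 554 CPM of Ly6c2 and 793 and 460 CPM of Ly6a.

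In macrophages Ly6c2 ran opposite to the C1q genes, and was lower where they were higher. The C1q genes encode the first complement component and rise as monocytes become tissue macrophages. The whole lineage had 746 CPM in Ifnar1-SA (735 to 758) and 433 CPM in WT (423 to 442), a log2 ratio of 0.79. C1q-low monocytic barcodes had 4681 CPM in Ifnar1-SA and 3758 CPM in WT (0.32). Macrophages with 30 to 100 C1q UMIs per 10000 had 1780 CPM in Ifnar1-SA and 1211 CPM in WT (0.56), and those with at least 100 had 552 and 317 CPM (0.80). Of macrophage barcodes thinned to 2000 UMIs, 36.4% in Ifnar1-SA and 25.1% in WT had a Ly6c2 UMI. The difference moved with sex-linked transcripts: Ifnar1-SA macrophages with Y-linked UMIs and no Xist had 1067 CPM, Ifnar1-SA macrophages with Xist and no Y-linked UMI had 621 CPM, and WT macrophages with Xist had 424 CPM. Among Xist-bearing macrophages without Y-linked UMIs the log2 ratio was 0.55, below the threshold. Macrophages with neither kind of transcript had the opposite order, 1247 CPM in Ifnar1-SA (287 barcodes) and 1340 CPM in WT (44 barcodes). Ifnar1-SA macrophages with both kinds had 1146 CPM (136 barcodes). The level was thus also high where no Y-linked UMI was counted, and a part of cell sex in it was not tested.

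**Figure D3:**
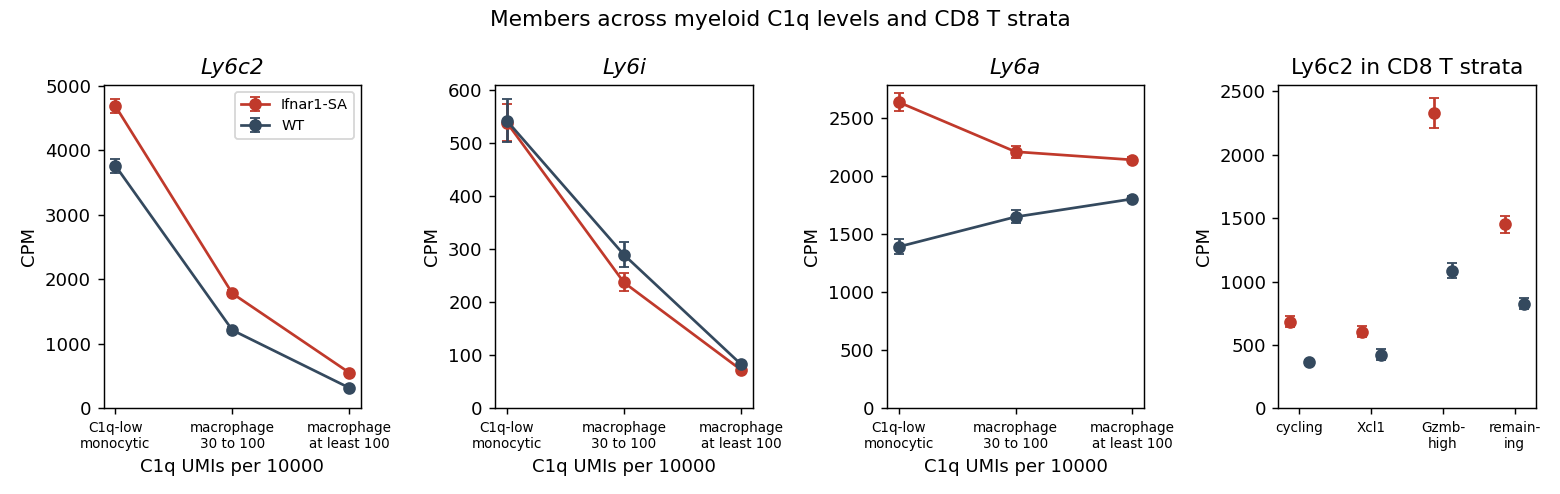
CPM of Ly6c2, Ly6i and Ly6a in C1q-low monocytic barcodes and in macrophages with 30 to 100 and at least 100 C1q UMIs per 10000, and CPM of Ly6c2 in 4 CD8 T strata; bars are 95% Poisson intervals of 1 library each. Ly6c2 and Ly6i are lower at each step to the right in both libraries; the stratum under 30 (18 Ifnar1-SA and 13 WT barcodes) is not drawn, and Ly6i there, 463 CPM in Ifnar1-SA and 210.0 CPM in WT, breaks this order in WT. Ly6c2 in CD8 T barcodes is highest in the Gzmb-high stratum (2325 CPM in Ifnar1-SA, 1086 CPM in WT).

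The largest ratio of Ly6c2, in Treg, rested on few barcodes. Treg barcodes had 263 CPM in Ifnar1-SA (885 UMIs) and 49.9 CPM in WT (137 UMIs), a log2 ratio of 2.40 (2.14 to 2.67). However, 33 Ifnar1-SA barcodes (6.55% of the lineage) and 4 WT barcodes (1.16%) with at least 3 Ly6c2 UMIs held 95.03% and 91.2% of these UMIs. Those barcodes had 4188 and 4335 CPM of Lyz2, the lysozyme gene of myeloid cells, against 109 and 56.7 CPM in the rest of the Treg barcodes. Their median depth was 11218 and 11227 UMIs, against 5105 and 5560.5 UMIs in the rest. After removal of myeloid-UMI barcodes (47 in Ifnar1-SA and 12 in WT), 62 Ly6c2 UMIs remained in 457 Ifnar1-SA barcodes, 21.8 CPM (16.7 to 28.0). In WT, 18 remained in 332 barcodes, 6.88 CPM (4.08 to 10.9), and the log2 ratio was 1.67. Ifnar1-SA Treg barcodes with Y-linked UMIs and no Xist (24 barcodes, 4 UMIs) had 22.6 CPM of Ly6c2, below WT, with a log2 ratio of -1.14. The interval of that ratio, -3.04 to 0.25, holds 0. With Xist and no Y-linked UMI, 446 Ifnar1-SA Treg barcodes had 223 CPM of Ly6c2 and 337 WT barcodes had 51.3 CPM, myeloid-UMI barcodes included. Ly6a in the same lineage had 2661 CPM in Ifnar1-SA and 1731 CPM in WT without the myeloid-UMI barcodes, a log2 ratio of 0.62 that is past 1.5-fold.

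**Figure D4:**
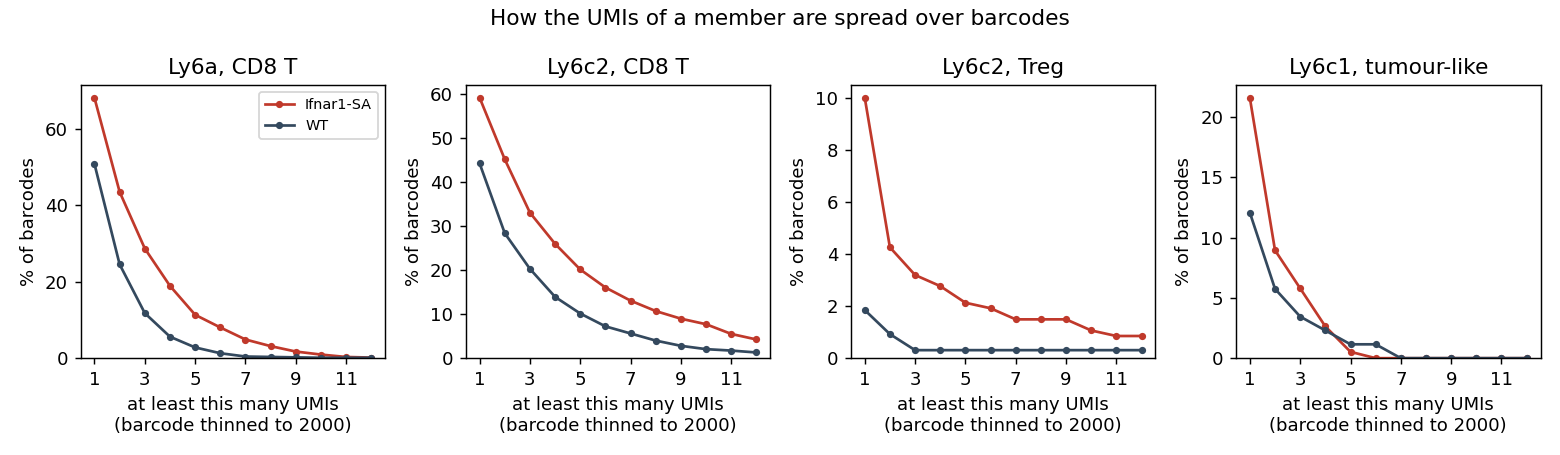
Share of barcodes with at least a given number of UMIs of a member, each barcode thinned to 2000 UMIs, in Ifnar1-SA and WT (1 library each). Ly6a and Ly6c2 in CD8 T barcodes shift as a whole (68.0% against 50.8% and 59.2% against 44.3% with 1 UMI or more), while Ly6c2 in Treg barcodes is a small tail (10.0% against 1.85%).

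Ly6e, the interferon-induced gene linked to virus entry, had smaller differences and none reached 1.5-fold in the 4 lineages. CD8 T barcodes had 607 CPM in Ifnar1-SA (585 to 630) and 449 CPM in WT (435 to 464), a log2 ratio of 0.43, with 64.1% and 55.9% of thinned barcodes positive. Treg had 1375 and 1068 CPM (0.36) and macrophages 2209 and 1902 CPM (0.22). Tumour-like barcodes went the other way, with 537 CPM in Ifnar1-SA (522 to 551) and 650.4 CPM in WT (634 to 667), a log2 ratio of -0.28. Among gates of at least 20 barcodes, the 2 highest levels of Ly6e were in macrophages and C1q-low monocytic barcodes in both libraries; in WT their intervals overlapped (1902 and 1875 CPM), and in Ifnar1-SA they did not (2209 and 2091 CPM). Within CD8 T, Ly6e differed most in Gzmb-high barcodes (log2 ratio 0.79) and least in cycling barcodes (0.19). After removal of myeloid-UMI barcodes CD8 T barcodes had 528 CPM in Ifnar1-SA and 435 CPM in WT.

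The myeloid level of Ly6i was close between the genotypes. This was not particular to Ly6i, since Ly6e had log2 ratios of 0.22 in macrophages and 0.16 in C1q-low monocytic barcodes. For Ly6i, macrophages had 101 CPM in Ifnar1-SA (96.7 to 105) and 108 CPM in WT (103 to 113). The log2 ratio was -0.10 (-0.19 to -0.01). C1q-low monocytic barcodes had 539 CPM in Ifnar1-SA and 542 CPM in WT (log2 ratio -0.01, interval -0.15 to 0.14). Thinned macrophage barcodes were positive in 13.9% of Ifnar1-SA and 15.2% of WT, against 1.57% and 0.648% of CD8 T barcodes. Levels in the C1q strata of 30 to 100 and at least 100 per 10000 were 237 and 72.8 CPM in Ifnar1-SA and 290 and 83.4 CPM in WT. The lowest stratum, with 18 Ifnar1-SA and 13 WT barcodes, had the opposite order, 463 CPM in Ifnar1-SA and 210.0 CPM in WT. Ifnar1-SA macrophages with Y-linked UMIs and no Xist had 60.8 CPM, and those with both kinds of transcript had 138 CPM (136 barcodes). Those with Xist and no Y-linked UMI had 101 CPM, close to the 106 CPM of the same set in WT. With neither kind, Ifnar1-SA macrophages had 94.2 CPM and WT macrophages 309 CPM (44 barcodes).

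In the CD8 T and Treg gates Ly6i was low. In CD8 T barcodes and Ifnar1-SA Treg barcodes most of its UMIs lay in barcodes with myeloid transcripts. CD8 T barcodes had 70 UMIs in Ifnar1-SA (15.5 CPM) and 51 UMIs in WT (6.46 CPM), below the filter on low values. The 5 barcodes with the most Ly6i held 48.6% of these UMIs in Ifnar1-SA and 86.3% in WT. Without the myeloid-UMI barcodes 9 UMIs remained in Ifnar1-SA and 6 in WT. Treg barcodes had 69 UMIs in Ifnar1-SA and 16 in WT. After the same removal 8 UMIs (2.82 CPM) remained in Ifnar1-SA and 9 (3.44 CPM) in WT, with intervals that overlapped. Conventional CD4 T barcodes had 45 UMIs in Ifnar1-SA (38.7 CPM) and 17 in WT (16.5 CPM), a log2 ratio of 1.23 that is past 1.5-fold. There 5 barcodes held 80.0% and 88.2% of these UMIs. The 7 macrophage markers summed to 2035 and 1713 CPM in that gate, and its values were not recomputed without myeloid-UMI barcodes. In tumour-like barcodes Ly6i had 18 UMIs in Ifnar1-SA and 3 in WT.

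Ly6c1, the other Ly6C gene, was a tumour-like gene in these libraries. Tumour-like barcodes had 181 CPM in Ifnar1-SA (172 to 189) and 103 CPM in WT (96.3 to 109), a log2 ratio of 0.82 (0.70 to 0.93). The same barcodes had 52 Ly6c2 UMIs in Ifnar1-SA and 11 in WT. CD8 T barcodes, rich in Ly6c2, had 4 Ly6c1 UMIs in each library, and after thinning 2 of 635 Ifnar1-SA and 0 of 926 WT barcodes (exact upper bound 0.398%) had one. Each Ly6C gene was thus counted in a lineage in which its near-copy had few UMIs. Macrophages had 74 Ly6c1 UMIs in Ifnar1-SA (3.32 CPM) and 31 in WT (1.77 CPM), and Treg 41 (12.2 CPM) and 9 (3.28 CPM).

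Ly6c1 was carried by part of the tumour-like barcodes. At least 3 UMIs were present in 79 Ifnar1-SA barcodes (41.6%) and 54 WT barcodes (31.0%), which held 97.5% and 95.1% of the Ly6c1 UMIs. These barcodes also had more Ly6a, 1067 CPM in Ifnar1-SA and 923 CPM in WT, against 126 and 169 CPM in the remaining tumour-like barcodes. Ly6e was likewise 706 and 820.0 CPM against 418 and 561 CPM. Across tumour-like barcodes thinned to 2000 UMIs, Ly6a and Ly6c1 correlated with Pearson's r of 0.68 in Ifnar1-SA (n = 190) and 0.61 in WT (n = 174), as a description of barcodes that share a library. Ly6c1 is known as a gene of blood vessel endothelium, and the endothelial markers Pecam1, Cdh5 and Kdr summed to 13.3 CPM in Ifnar1-SA and 13.1 CPM in WT, with 3 or more UMIs in 2 barcodes of each library. Pecam1 itself was higher in the barcodes with at least 3 Ly6c1 UMIs, with 11.2 CPM in Ifnar1-SA and 12.8 CPM in WT, against 0.35 and 0.64 CPM in the remaining tumour-like barcodes. The part of endothelial transcripts in the Ly6c1 values was not tested beyond leaving out the 2 barcodes of each library, which gave a log2 ratio of 0.82.

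**Figure D5:**
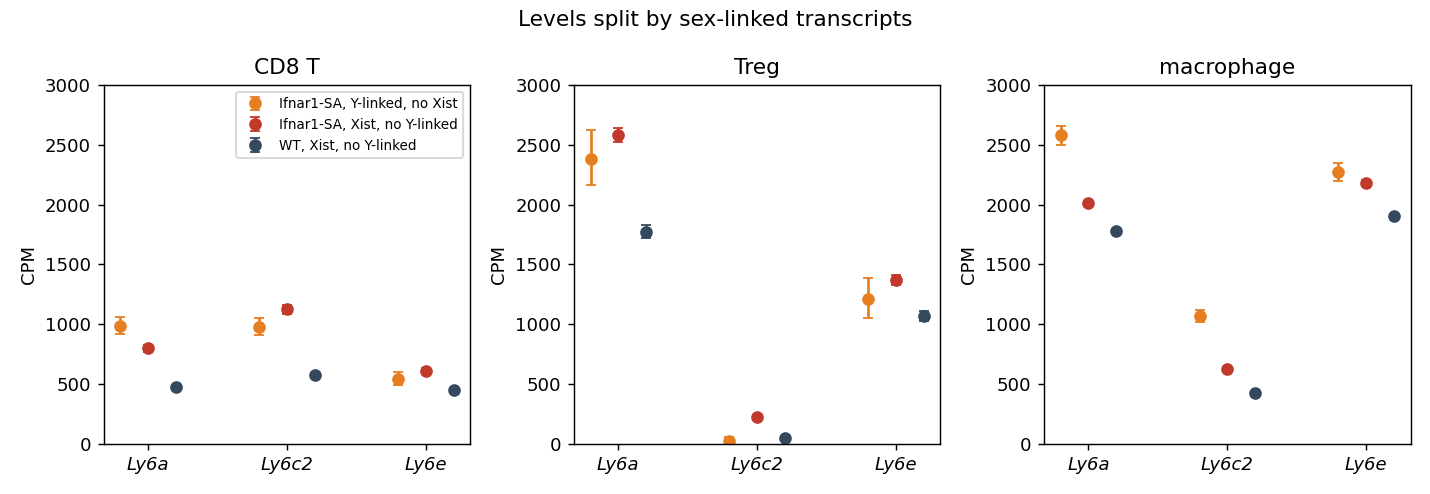
CPM of Ly6a, Ly6c2 and Ly6e in 3 lineages, for Ifnar1-SA barcodes with Y-linked UMIs and no Xist, Ifnar1-SA barcodes with Xist and no Y-linked UMI, and WT barcodes with Xist and no Y-linked UMI; bars are 95% Poisson intervals. Both Ifnar1-SA sets lie above WT for Ly6a (986 and 796 CPM against 475 CPM in CD8 T). Ly6c2 in Treg lies below WT in the Y-linked set (22.6 CPM from 4 UMIs, against 51.3 CPM) and above it in the Xist set (223 CPM).

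The members were set beside other interferon-responsive genes, a list of 54 type I interferon genes chosen with earlier results known. In CD8 T barcodes 17 of 42 list genes that passed the filter were at least 1.5-fold higher in Ifnar1-SA and 0 lower, with a median log2 ratio of 0.44 against 0.00 over all 4970 genes. In Treg it was 38 of 49, with a median of 0.92 against -0.01; Rsad2, an antiviral enzyme gene, had 93.5 CPM in Ifnar1-SA and 13.1 CPM in WT. In macrophages 11 of 53 were higher, with a median of 0.44 against 0.07. In tumour-like barcodes 0 of 38 were higher and 10 were lower, with a median of -0.20 against 0.04, and Rsad2 had 56.1 CPM in Ifnar1-SA and 105 CPM in WT. Ly6e shared the sign of the list median in all 4 lineages. Among members that passed the filter, Ly6a and Ly6c1 in tumour-like barcodes and Ly6i in macrophages (-0.10) had the opposite sign. Within a lineage and library, Ly6a correlated with the summed list across thinned barcodes at r = 0.42 in Ifnar1-SA and 0.37 in WT CD8 T barcodes, and at 0.46 and 0.51 in Treg. Ly6i in macrophages gave 0.07 in Ifnar1-SA (n = 1922) and 0.06 in WT (n = 1379).

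The other lists are read against the same background: 3.24% of all genes were at least 1.5-fold higher in CD8 T, 4.4% in Treg, 1.31% in macrophages and 0.222% in tumour-like barcodes, with all-gene medians of 0.00, -0.01, 0.07 and 0.04. Of the interferon gamma genes, 4 of 19 in CD8 T barcodes were at least 1.5-fold higher (median log2 ratio 0.18), in Treg 5 of 21 (0.20), in macrophages 0 of 22 (0.15) and in tumour-like barcodes 0 of 19, with 2 lower (-0.20). Cxcl9, a chemokine gene of this list, had 283 CPM in Ifnar1-SA and 653 CPM in WT tumour-like barcodes. Other GPI-anchored proteins gave 1 of 6 higher in CD8 T (median 0.17), 2 of 7 in Treg (0.08), 0 of 6 in macrophages with 2 lower (0.04) and 0 of 2 in tumour-like barcodes (-0.04). Thy1, a GPI-anchored protein of T cells, had 575 CPM in Ifnar1-SA and 562 CPM in WT CD8 T barcodes, and the 2 lower genes in macrophages were Cd14 (323 and 543 CPM) and Folr2 (32.9 and 75.0 CPM). Of the monocyte genes, 2 of 3 were higher in CD8 T (median 0.73) and 2 of 4 in Treg (0.74). In macrophages 2 of 8 were higher with 3 lower (0.31), and in tumour-like barcodes 0 of 3 were higher (-0.22). Ms4a4c, with log2 ratios of 1.66 in CD8 T and 2.15 in Treg, is also on the type I interferon list. So is Bst2, a GPI-anchored gene past 1.5-fold in Treg (0.74). Cd14 was past it in CD8 T (1.84) and Treg (2.96). Macrophage markers were higher in the Ifnar1-SA T cell gates, and the list counts were not recomputed without the myeloid-UMI barcodes. In macrophages Ccr2, the receptor that brings monocytes into tissue, had 279 CPM in Ifnar1-SA and 174 CPM in WT, while F13a1, a coagulation factor gene of monocytes, had 16.6 and 72.3 CPM.

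The rest of the Ly6/uPAR family was sparse in these cells. Of 31 other family genes, all present in the tables, only Plaur, the urokinase receptor, passed the filter in any of the 4 lineages. It had 92.4 CPM in Ifnar1-SA and 106.7 CPM in WT macrophages (log2 ratio -0.21), and 29.2 and 24.1 CPM in tumour-like barcodes (0.28). Over all kept barcodes Ly6g, the neutrophil member, had 8 UMIs in Ifnar1-SA and 10 in WT. Ly6d had 473 and 508 UMIs, and Gpihbp1, the capillary protein that anchors lipoprotein lipase, had 355 and 45.

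Patterns over the 7 lineages and gates of both libraries (14 profiles of log2(CPM + 1), 8339 genes) were compared by Pearson's r. Ly6a was most like Plk3 (0.96), Ikbke, Zswim6 and Kat2b (0.94). Ly6c2 was most like Lnpep (0.96), Smpdl3b, P2ry10b, Ifi208 and Adssl1 (0.94). Ly6e was nearest to Slc36a1 (0.98), Ldhb, Rtp4, Rnase4 and Xbp1 (0.96), and Ly6i to Fgr (0.98), Il1b, Mgat4a, Tppp3 and Plekhf2 (0.96). Ly6c1 was nearest to Spire1 (0.95), Ube2r2, Msmo1, Tsc22d1 and Ext1 (0.94). Among the members themselves, Ly6a and Ly6e were alike (0.93), Ly6i and Ly6c2 less so (0.70), and Ly6c1 ran opposite to Ly6c2 (-0.71). The profiles share libraries and a gene high in 1 lineage can dominate r, so these values describe likeness over these profiles alone.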

How the data were processed

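The authors deposited unfiltered UMI counts per gene and barcode for 2 libraries, 1 per genotype. They were made with Cell Ranger 4, per the file headers, on mm10, per the submitters' processing notes. Annotation release and read handling are not given here. Total UMIs were 62732220 in Ifnar1-SA and 55497066 in WT.

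Kept barcodes had 1000 or more UMIs, 500 or more genes and no more than 10% mitochondrial UMIs. Gates used summed marker UMIs: CD8 T (Cd3e, Cd3g and Trac at least 2, Cd8a and Cd8b1 at least 2), Treg (the same T markers, Foxp3 at least 1), macrophage (C1qa, C1qb and C1qc at least 20) and tumour-like (Rhox5, Tm4sf1 and Sdc2 at least 10). No doublet caller was run, and barcodes passing more than 1 gate were left out. C1q-low monocytic barcodes had at least 10 UMIs of Lyz2, Csf1r, Fcgr1 and Ccr2 with C1q under 20. CD8 T strata were cycling (at least 3 UMIs of cell cycle genes), then Xcl1 (at least 2), then Gzmb-high (at least 10 per 10000), then the rest.

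UMIs summed per lineage and library were scaled to 1000000 (CPM), with exact Poisson intervals at the 95% level. Ratios are Ifnar1-SA over WT with exact conditional binomial intervals. Shares follow thinning of each barcode to 2000 UMIs, which left out 66 and 86 CD8 T, 35 and 20 Treg, 41 and 25 macrophage and 0 and 0 tumour-like barcodes in Ifnar1-SA and WT. With a single library per genotype, no comparison was tested.

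The members and gene lists were chosen with earlier results of these data known. All 5 members are named in every lineage, list genes come from the highest and lowest ratios, and similar genes are the 5 of highest correlation, 1 of which is not reported here. Splits at 3 UMIs of Ly6c1, Ly6c2 or myeloid genes were chosen after seeing the data. Ratios were checked on simulated counts. Python 3.11.15, numpy 2.4.6, scipy 1.17.1, pandas 2.3.3 and Biopython 1.88 were used.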

Additional observations from a re-analysis of the deposited data

Results flagged for a closer look

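Ly6e was lower in Ifnar1-SA than in WT in tumour-like barcodes, with 537 CPM in Ifnar1-SA and 650.4 CPM in WT (log2 ratio -0.28), while it was higher in Ifnar1-SA in CD8 T, Treg and macrophage barcodes. The difference between lineages stands out because the directions are opposite; with 1 library per genotype it was not tested.

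Ly6i was slightly lower in Ifnar1-SA macrophages, with 101 CPM in Ifnar1-SA and 108 CPM in WT (log2 ratio -0.10), and higher in the Ifnar1-SA T cell gates, where it had few UMIs (70 and 51 in CD8 T, 69 and 16 in Treg). The T cell gates of Ifnar1-SA also had more macrophage marker UMIs, 1166 CPM in Ifnar1-SA and 434 CPM in WT in CD8 T, and 1555 and 550 CPM in Treg. Without barcodes of 3 or more myeloid UMIs, Ly6i in Treg was 8 UMIs (2.82 CPM) in Ifnar1-SA and 9 UMIs (3.44 CPM) in WT, so the order turned, with intervals that overlapped, and in CD8 T it was 9 and 6 UMIs. This difference between lineages was not tested either.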

How the results depend on the processing

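Each of 18 log2 ratios was recomputed under 12 to 16 of the 18 alternatives, of which 15 were planned and 3 chosen after seeing the data, and 254 of 261 recomputed ratios kept their direction. The direction of 14 ratios held under every alternative run. The share of all genes past 1.5-fold was not recomputed under the alternatives, so nothing is read from the counts below. The alternative with no minimum mean also had a lower minimum of UMIs. In CD8 T, Ly6a and Ly6c2 stayed past 1.5-fold under all 16 alternatives run, and Ly6e passed it under 1, gates as worded (0.63). For Treg, 1 member was at least 1.5-fold higher: this became 2 with gates as worded and with the 5 highest barcodes left out, 3 with no minimum mean, and 0 with Ifnar1-SA barcodes of Y-linked UMIs set against WT, where 1 was lower instead. For macrophages, 1 was higher: this became 2 with no minimum mean and 0 with Xist-bearing barcodes or with C1q strata weighted equally, and 1 was lower with Y-linked barcodes. For tumour-like barcodes, 1 became 3 with no minimum mean, by construction since more genes pass. Ly6c2 in Treg turned to -1.14 with Y-linked barcodes (24 barcodes, 4 UMIs) and otherwise ranged up to 5.13. That highest value came with the 5 highest barcodes left out, which held 92.0% of the 137 WT UMIs and 46.7% of the 885 Ifnar1-SA UMIs. It therefore rests on few WT UMIs. Ly6c1 in Treg was -0.87 with gates as worded, Ly6c1 in macrophages -1.54 with Y-linked barcodes, and Ly6i in macrophages 0.41 with strata weighted equally. Without myeloid-UMI barcodes Ly6a in Treg reached 0.62, past 1.5-fold, and Ly6c2 in Treg fell under the minimum mean. The causes were not tested. Sex-linked alternatives were not run for tumour-like barcodes, too few of which held these transcripts. No paired analysis was possible because each genotype has 1 library and no test was made.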

Other observations

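Plasmacytoid dendritic barcodes were too few for the report, with 16 in Ifnar1-SA and 19 in WT. Ly6c2 had 5379 CPM in Ifnar1-SA (628 UMIs) and 2509 CPM in WT (308 UMIs) there, and Ly6a had 3032 and 2191 CPM. Ly6e had the opposite order, 1619 CPM in Ifnar1-SA and 2110 CPM in WT (189 and 259 UMIs).

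Barcodes that passed a T cell gate and the macrophage gate together, 350 in Ifnar1-SA and 195 in WT, had 779 and 609.5 CPM of Ly6c2, 2131 and 1511 CPM of Ly6a and 74.1 and 77.4 CPM of Ly6i.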
